A study of Gallus gallus with 5 samples.

Results

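The genes described here are 60 listed genes of the cell cycle and of DNA replication, measured in DT40 cells. This chicken line comes from B cells of a bursal lymphoma and recombines homologous DNA at a high rate. The genes were followed through their probe sets on Affymetrix Chicken Genome arrays, each probe set being counted where its only gene symbol in the platform's annotation was a listed gene. Of the 60 genes, 52 had a probe set, with 101 probe sets among 38439 on the array. The other 8 genes (CCNB2, CDK2, CDC6, MCM4, MCM7, AURKA, ESPL1 and CENPA) had none under their listed symbol and were not analysed here. Of the 5 arrays, 1 carries the label of an H1L deletion mutant and 2 that of an H1R deletion mutant, H1L and H1R being variants of linker histone H1, and 2 are of wild-type cells (WT). All were DT40 cells, and the series describes the mutants as exponentially growing cells in RPMI medium with 2-mercaptoethanol, fetal calf serum and chicken serum. The labels do not say whether a mutant was 1 clone or several, or whether replicates were separate cultures, so the p-values below reflect the spread among these arrays only, and that spread may be technical.

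The series set out to find genes regulated by single variants of H1, a protein that binds where DNA enters and leaves the nucleosome. In a dividing cell, D-type cyclins with CDK6 and E-type cyclins with CDK2 phosphorylate the retinoblastoma proteins, which releases the E2F factors to switch on genes for DNA synthesis. Origins of replication are marked by the origin recognition complex, loaded with the MCM helicase by CDC6 and CDT1, and fired by CDC7 and cyclin-dependent kinases. Mitotic entry then runs through CDK1 with B-type cyclins, PLK1 and the Aurora kinases, and the spindle checkpoint holds anaphase until the centromeres are attached. Most transcripts of these genes rise and fall within each cycle, so in a growing culture a level is an average over cells in all phases, and fewer cells in a phase and less RNA per cell cannot be told apart.

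Median signals lay between 19.3 and 22.4 over the 5 arrays. RNA quality was read from actin, whose 3' over 5' signal ratio was 2.01 for H1L, 3.87 and 2.25 for H1R, and 2.81 and 2.02 for WT. The same ratio of GAPDH was 1.04 for H1L, 1.09 and 1.02 for H1R, and 0.998 and 1.02 for WT. The date code in the sample descriptions places H1R 1 and WT 1 on a first day, and H1L 1, H1R 2 and WT 2 on a second day. Which step of the work the code dates is not stated in the labels. Of 11 measured B cell markers, 9 were above the background limit on all arrays, PAX5 narrowly so at 32.5 to 46.5. The 11 summed to 12056 in H1L, 11126 and 11836 in H1R, and 13429 and 18533 in WT. Single markers went both ways. IRF4 had 696.4 in H1L, 636.8 and 502.7 in H1R, and 2621.1 and 2804.9 in WT. CXCR4 had 551.5 in H1L, 752.4 and 1004.8 in H1R, and 217.1 and 280.7 in WT. CD38 and RAG2 were at or below the limit on all arrays. Of 8 T cell markers CD3D alone was above the limit on all arrays, while CD4, LCK and ZAP70 were at or below it. The 8 summed to 2218 in H1L, 1550 and 978 in H1R, and 2518 and 4244 in WT. CD3D made up most of each sum, and CD5 went the other way. CD5 had 229.7 in H1L, 246 and 208.3 in H1R, and 17.7 and 36.1 in WT. Above the limit on all arrays were also 1 of 6 myeloid markers (SPI1), 0 of 4 erythroid markers and 2 of 8 fibroblast markers (COL3A1 and FN1). The myeloid marker MMP9 had 793.3 in H1L, 246.2 and 389.1 in H1R, and 24.1 and 61.2 in WT. The fibroblast marker COL1A2 had 102.4 in H1L, 98.3 and 285.1 in H1R, and 6 and 26.5 in WT. The part of these markers in the results below was not tested. The H1L and H1R probe sets do not check the labels: HIST1H111R read 42.2 in H1L, 28.9 and 7 in H1R, and 36.1 and 39.4 in WT, and HIST1H111L read 2295 in H1L, 982 and 2372 in H1R, and 1320 and 2035 in WT, so H1L and H1R stand below for the arrays labelled so.

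The cell cycle genes were expressed in all 3 genotypes, and neither deletion moved any of them past the test in the fit without the day. All 52 genes had a probe set above the background limit on all 5 arrays. Of their 101 probe sets, 92 passed the filter on dim signals and were tested, and the 9 others belonged to genes that also had a tested probe set. With limma's moderated test and Benjamini-Hochberg adjustment over all 23053 tested probe sets, 0 of 92 were called at an adjusted p under 0.05 in H1R against WT, where 1.17% of all tested probe sets were called. In H1L against WT 0 of 92 were called, against 0.2% of all. At an unadjusted p under 0.05, 10 of 92 (10.9%) passed in H1R against WT, beside 10.2% of all tested probe sets. Of the 10, 9 were higher (9.78%, beside 6.14% of all), from CCND2, CCND3, CCNE1, ORC6, RBL1 and RBL2, and 1 was lower (1.09%, beside 4.09%), from CCNE2. In H1L against WT 6 of 92 (6.52%) passed, beside 6.89% of all. Of these, 2 were higher (2.17%, beside 2.18%), from RBL1 and RRM2, and 4 were lower (4.35%, beside 4.72%), from CCNE2, CDKN1B and the dimmest probe set of RB1. With the day as a block in the fit, 25 of 92 (27.2%) passed at an unadjusted p under 0.05 in H1R against WT, beside 16.8% of all tested probe sets, and 8 of 92 (8.7%) in H1L against WT, beside 10.7%. Of the 25, 21 were higher (22.8%, beside 10.4% of all). They came from the 3 D-type cyclins, CCNE1, ORC3, ORC4, ORC6, RBL1, RBL2, CDC7, MCM6, RRM1 and RRM2. The other 4 were lower (4.35%, beside 6.4%), from CCNE2 and from dimmer probe sets of CDK6. Of those of CDK6, 1 was not above the background limit on either H1R array, and the brightest CDK6 probe set gave 0.12. With quantile normalization as well as the block, 20 of 92 passed at an unadjusted p under 0.05. The share of all in that fit is not given here. The H1L test has 1 array on its side and assumes that this array varies like the others.

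The lists can be read through the brightest tested probe set of each gene, with fold changes on the scale of log2(signal + 6). In H1R against WT the 52 genes ran from -0.58 to 1.00 with a median of 0.13, beside a median of 0.12 over 9962 named genes. In H1L against WT they ran from -1.07 to 1.04 with a median of 0.14, beside -0.05 over all named genes. The H1L array is of the second day, and with the day as a block that median was -0.02, beside -0.16 over all named genes. Values of single genes in H1L below are likewise set against WT arrays of both days, unless the day is named. In H1R, 38 of 52 genes (73.1%) read higher than in WT, beside 62.1% of all named genes, and 28 (53.8%) did after quantile normalization, which brings the arrays to 1 distribution, beside 53% of all. In H1L, 31 of 52 (59.6%) read higher than in WT, beside 46% of all named genes, and 35 (67.3%) did after quantile normalization, beside 51.7% of all. Fold changes had a median standard error of 0.29 for H1R and 0.36 for H1L, and the 95% interval lay within a log2 fold change of 1 either way for 33 of 52 genes in H1R and for 18 of 52 in H1L. Changes of more than 2-fold thus lay outside the interval of those genes and inside that of the others.

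**Figure D1:**
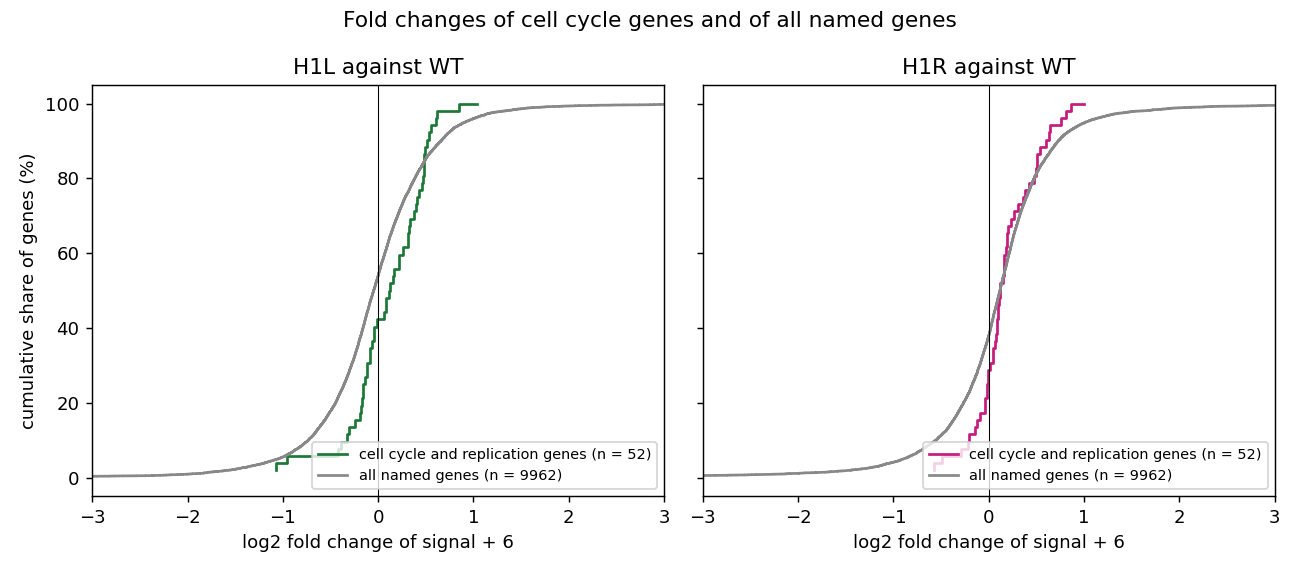
Cumulative share of genes (%) against the log2 fold change of signal + 6, for H1L against WT (left) and H1R against WT (right), with 1 probe set per gene; the coloured line holds the 52 cell cycle and replication genes and the grey line all 9962 named genes, and the axis ends at a log2 fold change of 3 either way. The coloured lines span -1.07 to 1.04 in H1L and -0.58 to 1.00 in H1R and lie inside the tails of the grey lines, with medians of 0.14 and 0.13.

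Groups that do not overlap were counted in H1R against WT. Both H1R arrays lay above both WT arrays for 26 of 92 probe sets (28.3%), beside 24.9% of all tested probe sets, and below for 5 of 92 (5.43%), beside 14.5% of all. A log2 fold change of at least 1 without overlap was seen in H1R for 3 probe sets higher (3.26%, beside 4.75% of all) and 0 lower (beside 3.87%). Those in H1R came from CCND3 and CCNE1. The dimmer CCND3 probe set was not above the background limit on WT 1, and that of CCNE1 was above it on H1R 1 alone. In H1L such a change was seen for 2 higher (2.17%, beside 4.1%) and 3 lower (3.26%, beside 6.15%). Without a limit on size, H1L sets 1 array against 2. The shares of all tested probe sets with H1L, or all 3 deletion arrays, beyond both WT arrays are not given here. Such positions of single genes are therefore only described below. Of the 25 genes with several tested probe sets, all probe sets shared 1 sign in 17 genes for H1R and in 16 for H1L, and of the 22 with several above the background limit on all arrays, in 15 and 16.

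**Figure D2:**
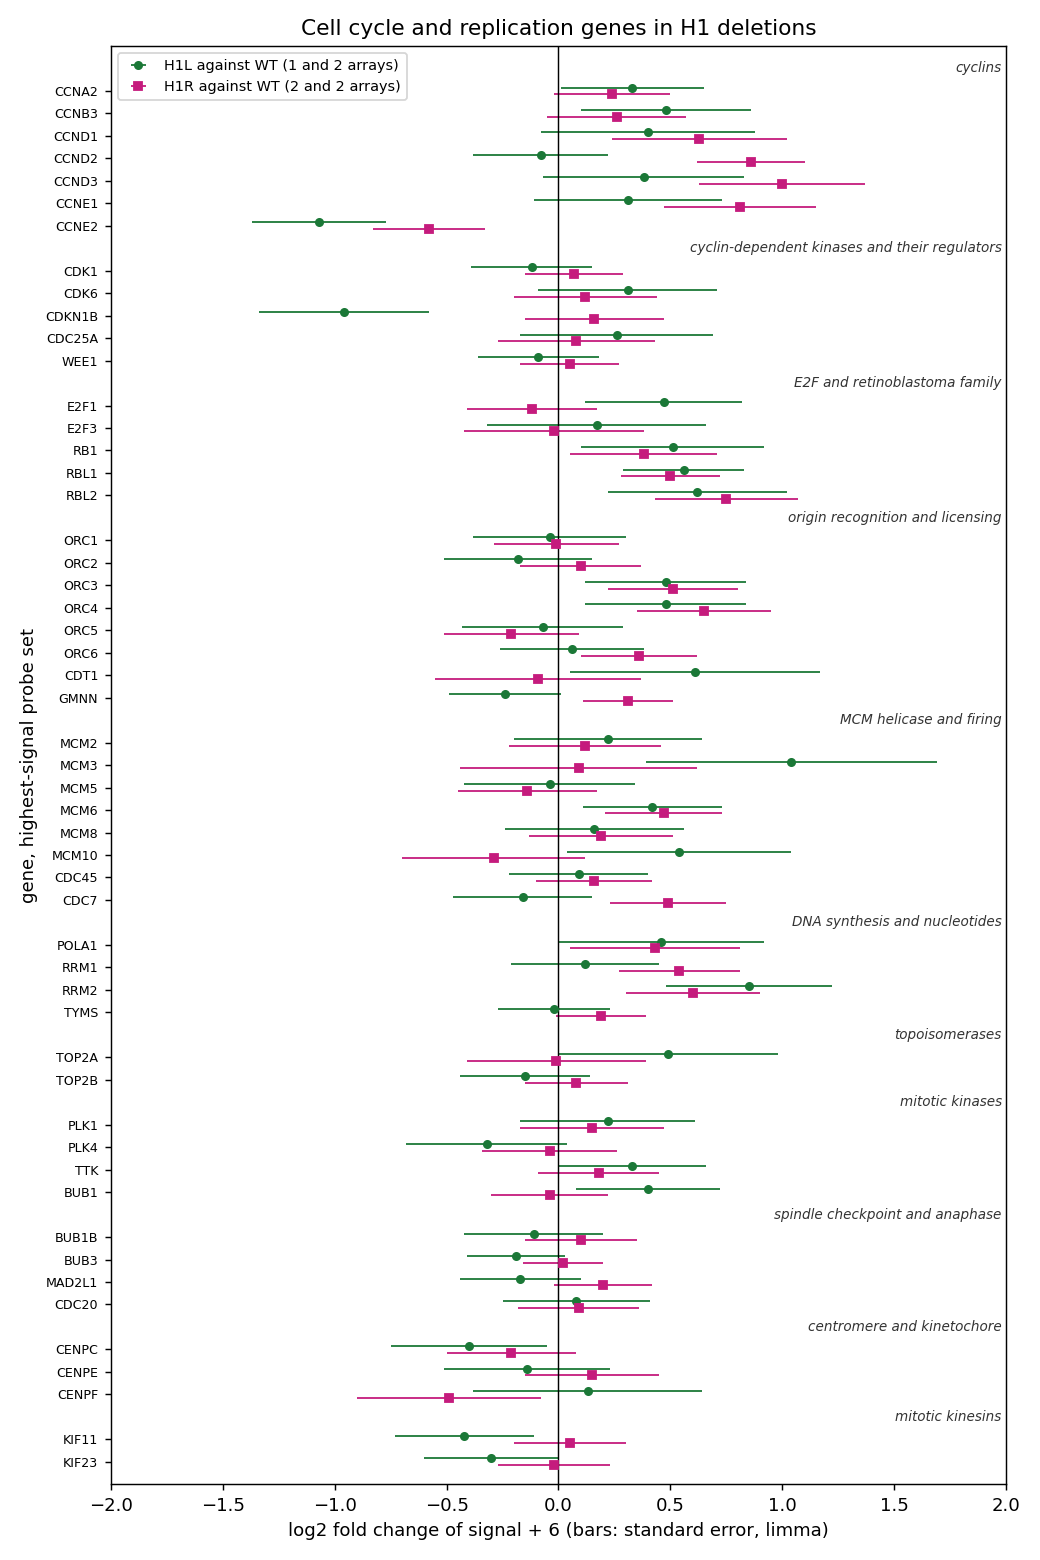
Log2 fold change of signal + 6 against WT for each of the 52 genes, by role, with H1L (green circles) and H1R (pink squares) from the brightest tested probe set of the gene and bars of 1 standard error. Most bars reach zero or come close to it, and the values farthest out are CCNE2 at -1.07 and MCM3 at 1.04 in H1L and CCND3 at 1.00 in H1R.

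Cyclins gave the widest values of the list in H1R. The D-type cyclins carry growth signals into the cycle by activating CDK4 and CDK6. CCND2 had a signal of 987.6 in H1L, 1796 and 2010.2 in H1R, and 952.9 and 1147.1 in WT. Both H1R arrays lay above both WT arrays and above H1L, which sat between the WT arrays. The log2 fold change was 0.86 ± 0.24 (SE) in H1R against WT with an adjusted p of 0.214, and -0.08 ± 0.30 in H1L against WT with an adjusted p of 0.992. With the day as a block, CCND2 was higher in H1R at the same 0.86 ± 0.17 with an adjusted p of 0.028, and it was the 1 probe set of 92 (1.09%) called in that fit, beside 3.7% of all tested probe sets. In H1L against WT the same fit called 0 of 92, beside 0.508% of all. The difference between H1R and WT was 0.91 on the first day and 0.81 on the second. Its other tested probe sets gave 0.99 ± 0.30 and 0.57 ± 0.32, and neither passed the test.

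CCND3 had a signal of 1008 in H1L, 1664.4 and 1452.6 in H1R, and 525.9 and 1136.9 in WT. Both H1R arrays were above both WT arrays, and the WT arrays differed more from each other than the H1R arrays did. Its log2 fold change in H1R was 1.00 ± 0.37 with an adjusted p of 0.38, made up of 1.65 on the first day and 0.35 on the second, and it was 0.45 without WT 1. CCND1 had 1197.2 in H1L, 1124.7 and 1753.4 in H1R, and 619.8 and 1315.1 in WT, so that its groups overlapped. Its log2 fold change was 0.63 ± 0.39 in H1R (adjusted p = 0.686), and 0.09 without WT 1.

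E-type cyclins drive the entry into S phase with CDK2, and the 2 genes read in opposite directions in H1R. CCNE1 had 155.9 in H1L, 283.4 and 175.7 in H1R, and 126.3 and 123.3 in WT, with H1R above WT on both days and a log2 fold change of 0.81 ± 0.34 (adjusted p = 0.473). A dimmer tested probe set gave 0.98 ± 0.33 in H1R. The dimmest had 3.1 in H1L, 30.5 and 29.6 in H1R, and 13.7 and 1.9 in WT (adjusted p = 0.459 in H1R against WT). It was above the background limit on H1R 1 alone, so no fold is given. CCNE2 had 739.1 in H1L, 1143.1 and 954.3 in H1R, and 1510.8 and 1617.1 in WT. All 3 deletion arrays lay below both WT arrays, with H1L lowest. The log2 fold change of CCNE2 was -1.07 ± 0.30 in H1L (adjusted p = 0.455) and -0.58 ± 0.25 in H1R (adjusted p = 0.473), and its other probe set gave -1.09 ± 0.37 and -0.69 ± 0.30. The H1L and H1R comparisons share the WT arrays. CCNA2, the cyclin of S phase and G2, and CCNB3, a B-type cyclin, gave 0.24 ± 0.26 and 0.26 ± 0.31 in H1R and 0.33 ± 0.32 and 0.48 ± 0.38 in H1L. These H1L values were 0.13 and 0.23 with the day as a block.

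**Figure D3:**
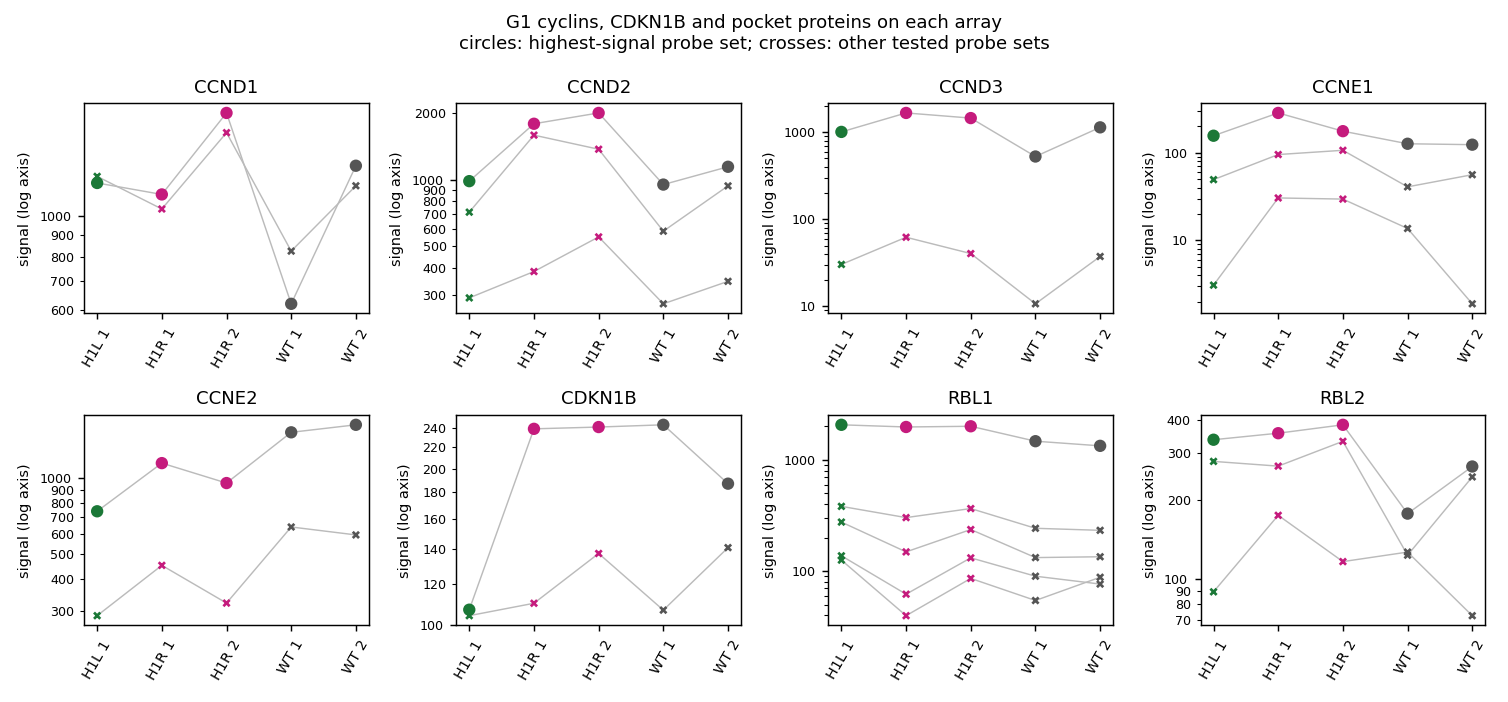
Signal on each of the 5 arrays (log axis) for the D- and E-type cyclins, CDKN1B, RBL1 and RBL2; circles are the brightest tested probe set, crosses the other tested probe sets, and thin lines join the values of 1 probe set. CCND2 is highest on the 2 H1R arrays, at 1796 and 2010.2, and CCNE2 is highest on the 2 WT arrays, at 1510.8 and 1617.1.

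Among the kinases and their regulators, the 5 genes with a probe set lay close to WT in H1R, between 0.05 and 0.16, and 1 gene stood away from WT in H1L. CDKN1B, the inhibitor p27 that binds cyclin and CDK2 complexes, had 107 in H1L, 238.6 and 240.5 in H1R, and 242.9 and 187.1 in WT. H1L was below all 4 other arrays, at -0.96 ± 0.38 against WT with an adjusted p of 0.689. Its second probe set, with 104.2 in H1L, 110.1 and 137.3 in H1R, and 106.8 and 140.9 in WT, gave -0.22 ± 0.40, so the 2 probe sets differed in size. CDK1, the mitotic kinase, had 4755.1 in H1L, 4687 and 6278.3 in H1R, and 4521.9 and 5913.8 in WT, with overlapping groups and a log2 fold change of 0.07 ± 0.22 in H1R. WEE1, which holds CDK1 inactive, gave 0.05 ± 0.22 in H1R and -0.09 ± 0.27 in H1L, and CDC25A, a phosphatase that activates these kinases, gave 0.08 ± 0.35 and 0.26 ± 0.43. CDK6, the partner of D-type cyclins, gave 0.12 ± 0.32 and 0.31 ± 0.40 from its brightest probe set, while 2 dimmer probe sets above the background limit on all arrays gave -0.95 ± 0.54 and -0.42 ± 0.37 in H1R. Of 2 more, above the limit on 2 arrays each, 1 had 58.6 in H1L, 3.1 and 30 in H1R, and 24.7 and 59.7 in WT. Its H1R and WT groups overlapped (adjusted p = 0.592). Neither H1R array nor WT 1 was above the limit there, so no fold is given.

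The pocket proteins of the retinoblastoma family, which bind and restrain E2F factors, read above WT in both deletions in their brightest probe sets, also after quantile normalization, and none passed the test. RBL1 (p107) had 2070.5 in H1L, 1979.4 and 2008.5 in H1R, and 1474.8 and 1339.6 in WT. The 3 deletion arrays lay close to each other and above both WT arrays, with log2 fold changes of 0.56 ± 0.27 in H1L (adjusted p = 0.776) and 0.50 ± 0.22 in H1R (adjusted p = 0.488). Its 4 dimmer probe sets ran from 0.67 to 1.02 in H1L and from -0.22 to 0.48 in H1R. RBL2 (p130) had 337.4 in H1L, 357.2 and 384.4 in H1R, and 176.9 and 267 in WT, again with all deletion arrays above WT, at 0.62 ± 0.40 in H1L (adjusted p = 0.873) and 0.75 ± 0.32 in H1R (adjusted p = 0.483). RB1 had 314.6 in H1L, 239.1 and 343 in H1R, and 191.2 and 250.5 in WT, with overlap between H1R and WT. Its dimmest tested probe set, with 9.3 in H1L, 22.1 and 31.2 in H1R, and 35.3 and 25.1 in WT, was not above the background limit in H1L and read at least 1.29-fold lower there than in WT. The third probe set of RBL2 gave -0.10 in H1L and 0.54 in H1R. E2F1 had 1291.5 in H1L, 772.3 and 945.5 in H1R, and 775.6 and 1119.4 in WT, which gave 0.47 ± 0.35 in H1L and -0.12 ± 0.29 in H1R. Its H1L value was 0.26 with the day as a block, where RBL1 stood at 0.59, RBL2 at 0.45 and RB1 at 0.29. E2F3 was dim, between 31.3 and 54.1 on the 5 arrays.

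The origin recognition complex, which marks the sites where replication can start, had all 6 subunits measured. ORC4 had 1017 in H1L, 973.1 and 1347.4 in H1R, and 616.1 and 863.7 in WT, and ORC3 had 366.6 in H1L, 361.1 and 386.1 in H1R, and 245.8 and 277.8 in WT. In both subunits all 3 deletion arrays lay above both WT arrays. The log2 fold changes of ORC4 were 0.48 ± 0.36 in H1L and 0.65 ± 0.30 in H1R (adjusted p = 0.915 and 0.525), and those of ORC3 were 0.48 ± 0.36 and 0.51 ± 0.29 (adjusted p = 0.911 and 0.653). In H1L, ORC4 stood at 0.24 and ORC3 at 0.41 with the day as a block. ORC6 gave 0.36 ± 0.26 in H1R from its brighter probe set and 0.79 ± 0.34 from the dimmer one (adjusted p = 0.476). ORC1, ORC2 and ORC5 lay at -0.01 ± 0.28, 0.10 ± 0.27 and -0.21 ± 0.30 in H1R. The 6 subunits of this 1 complex thus ran from -0.21 to 0.65 in H1R, and none passed the test.

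Of the factors that load the helicase, CDT1 had 1073.3 in H1L, 489.1 and 882 in H1R, and 451.3 and 1085.8 in WT. The low arrays were H1R 1 and WT 1, both of the first day, and the log2 fold change in H1R was -0.09 ± 0.46. Geminin (GMNN), the inhibitor of CDT1, had 2645 in H1L, 3703.6 and 4070.8 in H1R, and 2813.6 and 3492.8 in WT. Its H1L array was the lowest of the 5 and its H1R arrays the highest, at -0.24 ± 0.25 and 0.31 ± 0.20 against WT, with adjusted p of 0.951 and 0.713. CDC7, the kinase that fires loaded origins, had 607.2 in H1L, 926.2 and 990.3 in H1R, and 671.8 and 687.9 in WT, with H1R above and H1L below WT, at 0.49 ± 0.26 and -0.16 ± 0.31. CDC45, a part of the active helicase, gave 0.16 ± 0.26 in H1R and 0.09 ± 0.31 in H1L.

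The MCM genes encode the replicative helicase (MCM2 to MCM7), the related protein MCM8, and MCM10. MCM6 had 3353.2 in H1L, 3164 and 3808.8 in H1R, and 2000.7 and 3118 in WT, and its 3 tested probe sets gave 0.47, 0.66 and 0.85 in H1R and 0.42, 0.45 and 0.43 in H1L. All deletion arrays lay above both WT arrays in all 3 probe sets, and without WT 1 the value of the brightest in H1R was 0.15. MCM3 had 1525.9 in H1L, 548.4 and 1128.8 in H1R, and 427.5 and 1271.2 in WT, at 1.04 ± 0.65 in H1L with an adjusted p of 0.864 and 0.09 ± 0.53 in H1R. Its 2 first-day arrays were the lowest, and within the second day H1L differed from WT by 0.26. MCM10, which helps to activate the helicase, had 95 in H1L, 35 and 72.7 in H1R, and 51.3 and 78.5 in WT, at 0.54 ± 0.50 in H1L, while its dimmer probe set, not above the background limit in H1L, read at least 1.37-fold lower there than in WT (adjusted p = 0.904). In H1L, the brightest probe sets of MCM6 and MCM10 stood at 0.20 and 0.16 with the day as a block. MCM2, MCM5 and MCM8 had overlapping groups, at 0.12 ± 0.34, -0.14 ± 0.31 and 0.19 ± 0.32 in H1R.

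**Figure D4:**
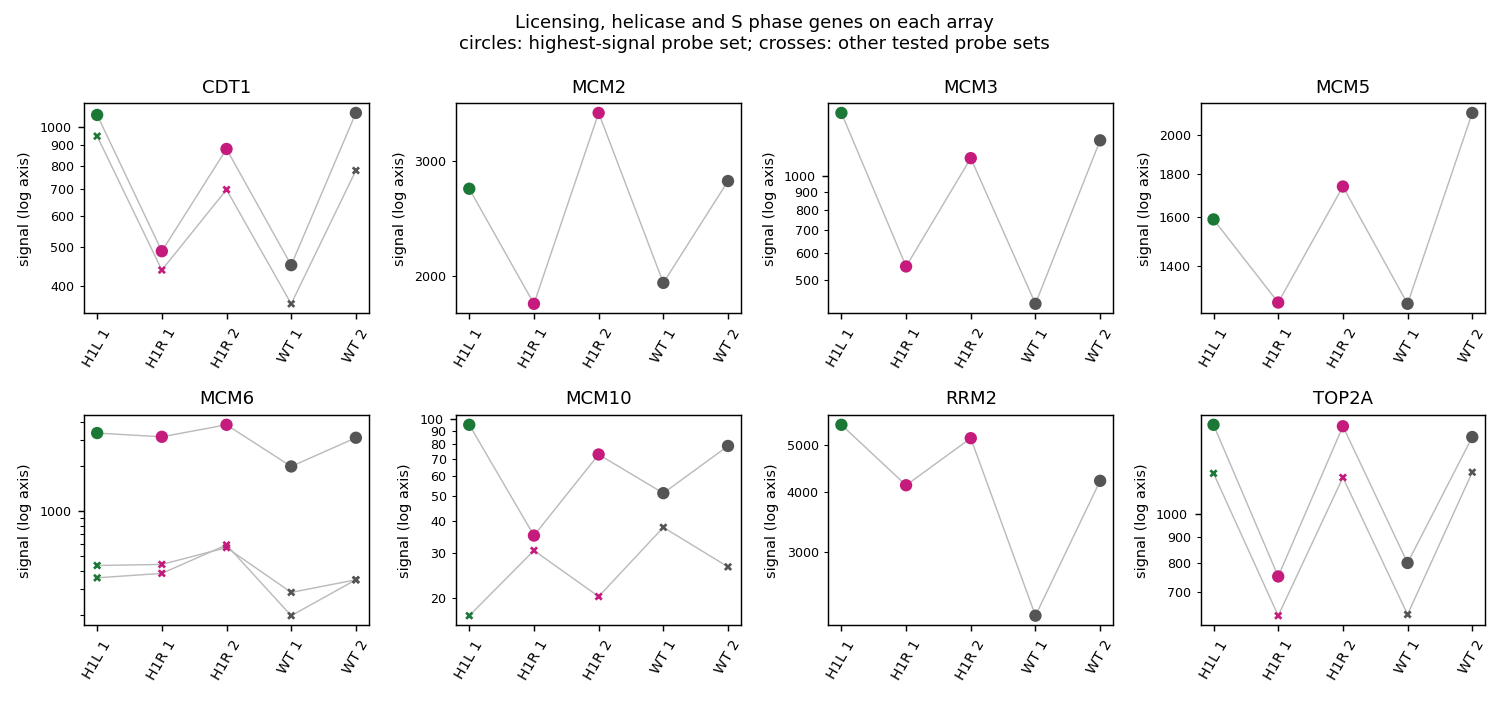
Signal on each of the 5 arrays (log axis) for CDT1, MCM genes, RRM2 and TOP2A; circles are the brightest tested probe set, crosses the other tested probe sets, and thin lines join the values of 1 probe set. For CDT1, MCM3 and TOP2A the 2 first-day arrays, H1R 1 and WT 1, read lowest, at 548.4 and 427.5 for MCM3.

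All 4 genes of DNA synthesis and nucleotide supply read higher than WT in H1R, also after quantile normalization, without passing the test, where 62.1% of all named genes read higher (53% after quantile normalization). Without WT 1, POLA1 and TYMS each stood at -0.03. Ribonucleotide reductase makes deoxynucleotides from a large subunit, RRM1, and a small one, RRM2. RRM2 had 5503 in H1L, 4122.2 and 5161.8 in H1R, and 2210 and 4210.2 in WT, so that H1L was highest and H1R overlapped WT. Its log2 fold change was 0.85 ± 0.37 in H1L (adjusted p = 0.722) and 0.60 ± 0.30 in H1R (adjusted p = 0.579), where it was 0.13 without WT 1. RRM1 had 895.6 in H1L, 1275.8 and 1134.5 in H1R, and 707.8 and 964.2 in WT, at 0.12 ± 0.33 in H1L and 0.54 ± 0.27 in H1R. Its difference between H1R and WT was 0.84 on the first day and 0.23 on the second. The dimmer RRM1 probe set gave 0.31 ± 0.33 in H1R, with overlapping groups. POLA1, the catalytic subunit of the polymerase that primes replication, gave 0.46 ± 0.46 in H1L and 0.43 ± 0.38 in H1R. Thymidylate synthase (TYMS) gave -0.02 ± 0.25 and 0.19 ± 0.20. In H1L, RRM2 stood at 0.54 and POLA1 at 0.12 with the day as a block. Of the topoisomerases, which relieve and untangle DNA, TOP2A had 1503.8 in H1L, 751.4 and 1494 in H1R, and 799.3 and 1422 in WT, and TOP2B gave 0.08 ± 0.23 in H1R and -0.15 ± 0.29 in H1L. The dimmer TOP2B probe set had the opposite signs, at -0.48 ± 0.56 in H1R and 0.35 ± 0.69 in H1L.

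Of the mitotic kinases and checkpoint genes, none left WT by more than 0.20 in H1R. PLK1, which promotes mitotic entry, had 2815.5 in H1L, 2215.8 and 3260.6 in H1R, and 1792 and 3250.6 in WT, with overlapping groups and 0.15 ± 0.32 in H1R. PLK4, the kinase of centriole duplication, gave -0.04 ± 0.30, and the checkpoint kinases TTK and BUB1 gave 0.18 ± 0.27 and -0.04 ± 0.26. BUB1 had 1182.5 in H1L, 843.6 and 894.9 in H1R, and 797.7 and 1002 in WT, with H1L the highest array. The checkpoint proteins BUB1B, BUB3 and MAD2L1, and CDC20, the activator of the anaphase-promoting complex, lay between 0.02 and 0.20 in H1R and between -0.19 and 0.08 in H1L. BUB3 had the narrowest error, at 0.02 ± 0.18 in H1R, with a 95% interval from -0.39 to 0.42.

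The centromere and spindle genes held the lowest mitotic values. CENPF, a kinetochore protein of G2 and mitosis, had 188.2 in H1L, 172.2 and 83.3 in H1R, and 140 and 210.2 in WT, at -0.49 ± 0.41 in H1R (adjusted p = 0.795). Its 3 probe sets above the background limit on all arrays gave -0.49, -0.57 and -0.29 in H1R, none of them past the test, and the brightest stood at 0.00 without H1R 2. CENPC, which binds centromeric chromatin, gave -0.21 ± 0.29 in H1R and -0.40 ± 0.35 in H1L, and CENPE, a kinetochore motor, gave 0.15 ± 0.30 and -0.14 ± 0.37. The dimmer CENPE probe set had the opposite signs, at -0.32 ± 0.54 in H1R and 0.21 ± 0.66 in H1L. KIF11, the motor that separates spindle poles, had 1159.1 in H1L, 1384.7 and 1865 in H1R, and 1481.2 and 1631.7 in WT, with H1L the lowest array at -0.42 ± 0.31 against WT. KIF23, a motor of cytokinesis, had 784.1 in H1L, 948.6 and 965.4 in H1R, and 1020.9 and 918.8 in WT, again with H1L lowest, at -0.30 ± 0.30.

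Set directly against each other, H1L and H1R differed in no listed gene past the test. Of 92 probe sets 0 were called, beside 0.00434% of all, and 5 (5.43%) passed at an unadjusted p under 0.05, beside 5.54% of all. Those 5 belonged to CCND2, CCNE1 and CDKN1B, all lower in H1L, where 4.31% of all tested probe sets were lower, and 0 were higher, beside 1.23% of all. With the day as a block 0 of 92 were called, beside 0.134% of all, and 12 (13%) passed at an unadjusted p under 0.05, beside 10.8%. CDKN1B had a log2 fold change of -1.12 ± 0.38 in H1L against H1R, and CCND2 of -0.94 ± 0.30, each with an adjusted p of 0.866. The second CDKN1B probe set gave -0.23 ± 0.40. For CCNE1 the passing probe sets were the dimmer ones, the dimmest above the background limit on H1R 1 alone, and the brightest gave -0.50 ± 0.42. MCM3, MCM10 and CDT1 stood at 0.95 ± 0.65, 0.83 ± 0.50 and 0.70 ± 0.56, and on the second day alone they stood at 0.43, 0.36 and 0.28. The median of the 52 genes was -0.06, beside -0.17 over all named genes, and after quantile normalization the medians were 0.15 and -0.02, so 40.4% of the genes read higher in H1L on the deposited scale, beside 34.6% of all named genes, and 69.2% after it, beside 48.3% of all.

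In the fit with genotype and day, all 8 measured genes of the MCM and origin firing group had a positive day difference. This held for 6 of them after quantile normalization. The smallest was that of CDC7, at 0.06 ± 0.19. CDC45 read lower on the second day in H1R, at 1340.8 against 1429.7 on the first. Among all named genes the fitted day difference was positive for 69%, and for 48.8% after quantile normalization. MCM3 was higher on the second day, by 1.03 in H1R and 1.56 in WT, with a fitted log2 difference of 1.30 ± 0.21 and an adjusted p of 0.0416 in limma's fit with genotype and day. It was the 1 probe set of 92 called by day, beside 0.62% of all tested probe sets, and the call was lost after quantile normalization, where its difference was 1.06 with an adjusted p of 0.0854. At an unadjusted p under 0.05, 34 of 92 probe sets (37%) were higher on the second day, beside 14.1% of all, and 1 (1.09%) was lower, beside 2.05% of all. By the brightest probe set of each gene, further differences were those of CDT1 (1.05 ± 0.20, adjusted p = 0.0582), TOP2A (0.91 ± 0.18, adjusted p = 0.0606), CCND1 (0.86 ± 0.19, adjusted p = 0.0771), MCM10 (0.75 ± 0.29, adjusted p = 0.237), MCM2 (0.75 ± 0.17, adjusted p = 0.0825) and PLK1 (0.71 ± 0.16, adjusted p = 0.0808). Dimmer probe sets gave wider differences for CDK6 (1.28, adjusted p = 0.0582, against 0.65 from its brightest) and TOP2B (1.29, adjusted p = 0.0691, against 0.24), so probe sets of 1 gene differed in size here.

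Second-day arrays lay above first-day arrays in both genotypes for 36 of 52 genes (69.2%), beside 47.3% of all named genes. After quantile normalization this held for 22 of 52 (42.3%), beside 28.4%. The median day difference of the 52 genes was 0.29, beside 0.19 over all named genes, and 0.05 beside -0.01 after quantile normalization. Set against the median of all named genes, MCM3 stood at 1.11, CDT1 at 0.86 and TOP2A at 0.72, while CCNE1 stood at -0.54. Across the 52 genes the day differences of H1R and of WT correlated at r = 0.438, and at 0.177 over all named genes, where genes are not independent and share the arrays. The 52 genes were brighter, with median log2 values of 9.49 to 10.11 over the arrays, beside 6.94 to 7.28 over all named genes. Their day differences had a median standard error of 0.19, beside 0.27. The part of brightness in the contrast with all named genes was not tested. The actin ratio was 2.25 in H1R and 2.02 in WT on the second day, against 3.87 in H1R and 2.81 in WT on the first. That of GAPDH was 1.02 in H1R and 1.02 in WT on the second day, against 1.09 and 0.998 on the first. The part of either ratio in the day difference was not tested.

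**Figure D5:**
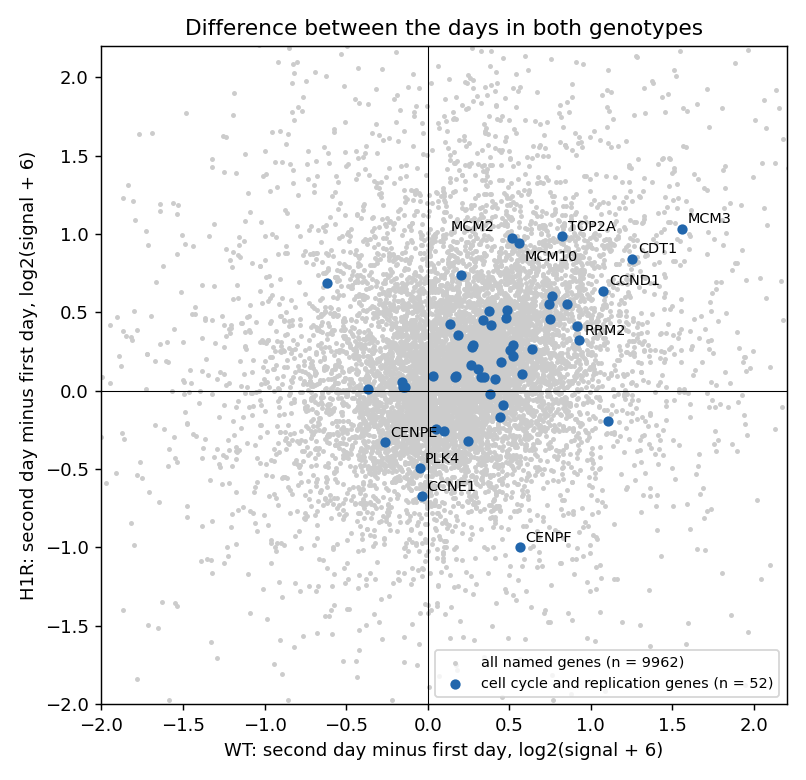
Second-day minus first-day value in log2(signal + 6), in H1R (vertical) and in WT (horizontal), for the 52 cell cycle and replication genes (blue) and all 9962 named genes (grey, of which some lie beyond the axes). Most blue points, 36 of 52, lie above zero in both genotypes, with MCM3 at 1.03 in H1R and 1.56 in WT.

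Within days, the H1R and WT arrays can be compared pair by pair. The difference had the same sign on both days for 32 of 52 genes (61.5%), beside 63.9% of all named genes, with 27 (51.9%) above WT on both days, beside 41.8% of all, and 5 (9.62%) below, beside 22.2%. After quantile normalization 19 (36.5%) lay above WT on both days, beside 33.8% of all, and 14 (26.9%) below, beside 29%. CCNE2 was below WT on both days, at -0.40 on the first and -0.76 on the second, and CCNE1 above, at 1.13 on the first and 0.49 on the second. MCM3, with 0.35 and -0.17, and CDT1, with 0.11 and -0.30, turned sign between days.

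A further 133 genes of the same processes were looked up, of which 112 had a tested probe set, 203 in all. As among the 52 genes, 0 of 203 probe sets passed the test in H1R against WT, H1L against WT or H1L against H1R, and 15, 5 and 6 passed at an unadjusted p under 0.05 (7.39%, 2.46% and 2.96%, beside 10.2%, 6.89% and 5.54% of all tested probe sets). GINS3, a subunit of the active helicase, had 877.8 in H1L, 1809.7 and 1310.9 in H1R, and 705.5 and 702.7 in WT. Its H1R arrays lay above all others, at 1.12 ± 0.27 against WT with an adjusted p of 0.132. With the day as a block it was higher in H1R with an adjusted p of 0.0144. CENPT, a kinetochore protein, had 827.1 in H1L, 785.1 and 1012.3 in H1R, and 409 and 571.9 in WT, at 0.87 ± 0.30 in H1R (adjusted p = 0.333, or 0.0433 with the day as a block) and 0.77 ± 0.37 in H1L. These were the 2 probe sets of 203 (0.985%) called with the block, beside 3.7% of all tested probe sets.

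The other genes of that list with wide values did not pass either fit. CHAF1B, a subunit of the chaperone that deposits histones behind the fork, gave 0.76 ± 0.28 in H1R and 0.71 in H1L, with all deletion arrays above WT. SGO1, the protector of centromeric cohesion, had 687.3 in H1L, 928.5 and 759.4 in H1R, and 1310.2 and 1283.9 in WT, at -0.91 ± 0.31 in H1L and -0.62 ± 0.25 in H1R. E2F5, an E2F factor that works with pocket proteins as a repressor, had 960.1 in H1L, 1410.4 and 1293.3 in H1R, and 1892.7 and 2081 in WT, at -1.04 ± 0.28 in H1L with an adjusted p of 0.419. Every deletion array of SGO1 and of E2F5 lay below both WT arrays. PRC1 (-0.69 ± 0.35), which bundles spindle microtubules, and RFC5 (-0.60 ± 0.32), of the clamp loader, read lower in H1R than in WT. In H1L, CENPM read -0.71 ± 0.36 and GINS1 0.67 ± 0.41 against WT. Another tested probe set of GINS1 lay below both WT arrays in H1L, so the direction of GINS1 depended on the probe set.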

How the data were processed

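Total RNA of 5 DT40 samples was measured on Affymetrix arrays. Per the submitters' processing notes, the authors used GCOS, and they deposited 1 signal intensity per probe set and array, on a linear scale. Which version and scaling target it ran with, and its detection calls, is not given in the sources used here, so scaling was varied. The small number of arrays limits the precision.

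Groups and replicate numbers came from the sample titles. After 96 control probe sets were left out, all 5 arrays were fitted on log2(signal + 6) with 1 term per group, using lmFit and trended eBayes of limma 3.58.1 (R 4.3.3), with 6 taken as the 25th percentile over all signals. Fold changes of dim probe sets are therefore understated. Probe sets with a mean signal above 13.4, the 40th percentile, were tested, and p-values were adjusted by Benjamini-Hochberg within each comparison over these 23053, with a threshold of 0.05. The fit has 2 residual and 6.04 prior degrees of freedom. Errors after ± are standard errors of log2 values. Gene symbols are those of the platform annotation, and a gene is represented by its tested probe set with the highest mean signal. For each array the background limit was set at the brightest of 23 controls that have no chicken target, from 18 to 33.6.

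By the date code, like-numbered H1R and WT arrays fall on 1 day, and the correlation of their deviations from their group means was 0.192, so a fit with the day as a block was run as well (1 residual and 8.32 prior degrees of freedom). The code was checked on simulated data. Every listed gene could be named, with the value of each array given for the 10, 10 and 5 largest changes in the comparisons of H1R with WT, H1L with WT and H1L with H1R. For the further 133 genes, the 3 largest each way in H1R and H1L against WT were named. The genes, lists and tests were chosen with earlier results of these data known. The day comparison and the quantile normalization together with the block were added after the data were seen. Sequences, promoters and coordinates were not used here.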

Additional observations from a re-analysis of the deposited data

How the results depend on the processing

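Calls among the 92 probe sets were 0 in all 3 comparisons under every alternative run (2 other scalings, 2 other pseudocounts, 2 other filters, no trend, the mean over probe sets, the replicate block and each array left out) except the block in H1R against WT. There 1 was called, CCND2, whose adjusted p ran from 0.028 to 0.659 over all alternatives. With the block and quantile normalization together 2 were called, CCND2 (0.71, adjusted p = 0.0408) and CCNE2 (-0.72, adjusted p = 0.0474). Among the further genes 2 were called with the block and 4 with both together, likewise in H1R against WT, and 0 otherwise. The block alone called 3.7% of all tested probe sets in H1R against WT. The share of all called with both together is not given here, so the counts from that fit are not set against it. Over single arrays left out, the median of the 52 genes ran from -0.03 (without WT 1) to 0.39 (without WT 2) in H1R against WT, from -0.11 to 0.32 in H1L against WT, and from -0.18 to 0.04 in H1L against H1R. The 10, 6 and 5 probe sets at an unadjusted p under 0.05 (H1R against WT, then H1L against WT, then H1L against H1R) became 3 to 14, 1 to 10 and 1 to 10 over single arrays left out (3 without WT 1 and without H1R 1 in H1R against WT, 1 without WT 1 in H1L against WT), 4, 4 and 4 without a trend, and 10, 8 and 11 with quantile normalization. For these alternatives the share of all tested probe sets at an unadjusted p under 0.05 is not given. The counts thus do not separate a move of the 92 probe sets from one of all. Of 2080 values of single genes under 14 alternatives, 2006 moved by less than 1 standard error, 73 by more, and 1, CCND2 with the block, passed the threshold without its fold moving. Some alternatives leave a fold unchanged by construction. These are the filters, the missing trend, an array left out that is not in the comparison, and the block in H1R against WT. The 2006 thus include values that could not move, and their share does not measure how firm the folds are. Calls by day among the 92 probe sets were 0 with quantile normalization, 2 with median scaling, and 7 and 3 with pseudocounts of 16 and 32, against 1 as reported, and 24, 278, 430 and 238 among all tested probe sets, against 143 as reported. MCM3 kept its call by day under all of these but quantile normalization. The arrays' number, with 1 for H1L, sets the width of the intervals, and why a value moved was not tested.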
